A study of Homo sapiens with 3 samples.

Results

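The genes examined encode proteins of the core spliceosome and of the small nuclear ribonucleoproteins (snRNPs): the SF3A and SF3B subunits, the Sm and other SNRP proteins, the Sm-like LSM proteins, the PRPF splicing factors and the U2AF proteins. They were chosen by gene symbol (SF3A or SF3B with a number, SNRP, LSM, PRPF with a number, U2AF), from probe sets that the platform annotation assigns to exactly 1 gene. The rule found 48 genes among the 18417 genes named on the array, measured by 55 probe sets, and 47 of them were bright enough to be tested. The remaining member, SNRPD2P2, is a pseudogene of the Sm gene SNRPD2 and lay below the filter on dim genes, at 4.46 with siSE1, 4.32 with siSE2 and 4.05 on the control array (log2).

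The material was LNCaP, an established human prostate cancer cell line that grows in response to androgen, and RNA levels were read on Affymetrix arrays. The cells were transfected with siSE1 (1 array) or siSE2 (1 array), siRNAs directed against the SLC45A3-ELK4 chimeric transcript, or with a negative control siRNA (1 array), using RNAiMAX, and RNA was harvested after 72 hours. ELK4 encodes a transcription factor of the ETS family, and SLC45A3 a prostate-enriched membrane transporter. The comparison asks which genes change when the chimera is targeted. For 1 array the labels conflict: its title says siSE2 and its transfection entry siSE1. The title was followed; under the other reading both arrays would carry the same siRNA.

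Splicing removes introns from pre-mRNA in the nucleus. The U1, U2, U4, U5 and U6 snRNPs each hold a small RNA, a ring of Sm proteins (Sm-like proteins on U6) and particle-specific proteins. U1 recognises the 5′ splice site, U2AF and the SF3A and SF3B complexes of U2 recognise the 3′ splice site and the branch point, and the U4/U6.U5 tri-snRNP then joins and is remodelled into the active enzyme.

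The parent genes of the targeted chimera read lower with both siRNAs without passing the test. SLC45A3 read 9.14 with siSE1 and 9.27 with siSE2, against 9.66 on the control array (log2; difference of -0.46 ± 0.15, SE, n = 2 against 1, as for every SE below; limma, adjusted p = 0.154). ELK4 read 8.45 with siSE1 and 8.20 with siSE2, against 8.50 on the control array (adjusted p = 0.582 by limma). These probe sets report the whole parent genes and do not measure the chimeric junction. The arrays were closely alike, with Pearson correlations over all 33297 probe sets of 0.993 between siSE1 and siSE2, 0.989 between siSE1 and the control and 0.991 between siSE2 and the control. The luminal prostate genes KLK3, KLK2, HOXB13, KRT8, KRT18, ACP3 and SLC45A3 lay above the filter on dim genes (mean of 5.12, log2). Of the marker genes of other cell types named on the array, 7 of 10 stromal, 3 of 6 blood cell and 3 of 5 basal genes also lay above it. The stromal genes FN1 (10.72 with siSE1, 10.63 with siSE2 and 10.75 on the control array) and ACTA2 were the highest of the stromal genes, while PTPRC, DCN and LUM were among those below the filter. LYZ read 6.09 with siSE1 and 5.11 with siSE2, against 4.41 on the control array, and the other 2 tested blood cell genes, CD14 and CD68, also read above the control. The material was the LNCaP cell line, and the source of these signals was not tested. No marker of basal, stromal or blood cells passed the test, with 1 higher (LYZ) and 2 lower (DST and ACTA2) at an unadjusted p under 0.05. Of the 7 luminal genes 0 passed. At an unadjusted p under 0.05, 3 of them were higher (ACP3, KRT8 and KRT18) and 2 lower (KLK3 and SLC45A3).

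Of the 47 spliceosome and snRNP genes tested, 1 rose and 0 fell when the mean of siSE1 and siSE2 was set against the control (limma, Benjamini-Hochberg adjusted p under 0.05 over 12892 genes). The gene that rose was SF3B5. Over all genes tested 0.962% passed by the same rule, 0.248% higher and 0.714% lower. At an unadjusted p under 0.05, 8 members were lower (17.0%, against 11.3% of all genes tested) and 3 were higher (6.38%, against 6.46%). The median member differed by -0.12 on the log2 scale, with -0.14 for siSE1 and -0.08 for siSE2, while the median of all genes tested was -0.02. With the filter on dim genes set at the 50th percentile, the members' median was -0.12 and that of all genes tested -0.05. By the mean of the siRNAs 31 of the 47 members were below the control, which is 66.0%, against 53.0% of all genes tested. With siSE1 32 members were below it (53.2% of all genes), and with siSE2 29 (52.0%). The siRNAs share their control array, so their values are not independent of each other. Each array averages over a culture, so fewer cells expressing a gene and less RNA per cell cannot be told apart.

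The differences were small for most members. A total of 32 of the 47 lay within 0.25 of the control on the log2 scale, and the 95% interval of the difference included 0 for 36. The half-width of these intervals ran from 0.32 to 0.54, so smaller differences could not be resolved with 3 arrays. The fit has 1 residual degree of freedom, taken from the difference between siSE1 and siSE2, and the lone control is assumed to vary as they do. Separate cultures are not stated, so the p-values rest only on the spread between these arrays, which may be technical. The moderated fit draws that spread largely from all genes tested and less from the gene itself. PRPF8, with an SD of 0.0016 between the siRNA arrays, and SNRPF, with 0.034, both had an SE of 0.14. If siSE1 and siSE2 are different siRNAs, as the titles say, the spread also holds any difference between their effects.

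**Figure D1:**
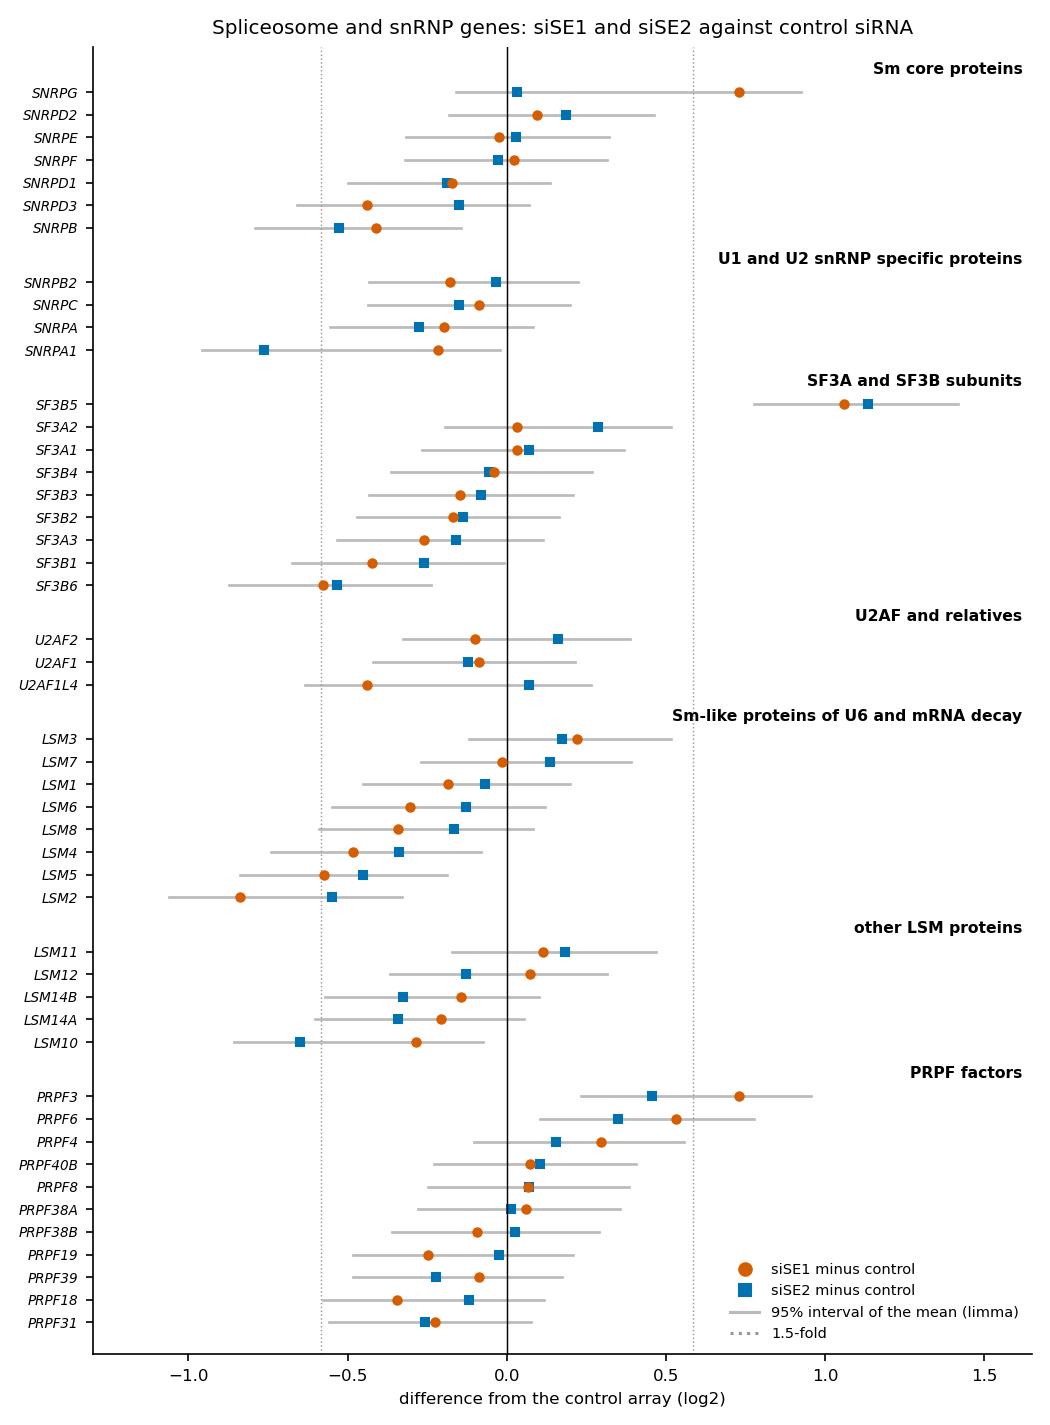
Difference of each of the 47 tested spliceosome and snRNP genes from the control array (log2, horizontal axis), with siSE1 as circles, siSE2 as squares and the 95% interval of their mean as a grey line; dotted lines mark 1.5-fold. SF3B5 lies apart at 1.06 and 1.14, LSM2 is the lowest by the mean, and the PRPF factors PRPF3 and PRPF6 lie above 0.

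**Figure D2:**
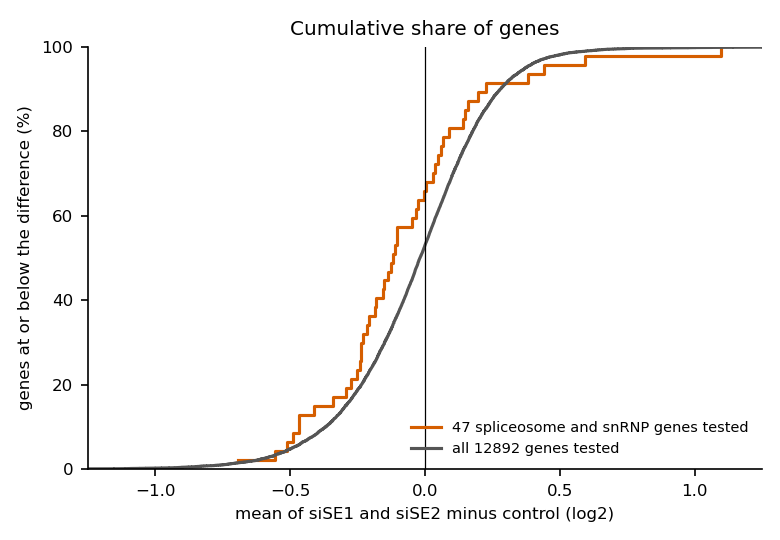
Cumulative share of genes (vertical axis, percent) by the mean of siSE1 and siSE2 minus control (log2, horizontal axis), for the 47 members and for all 12892 genes tested. The members' curve crosses 0 at 66.0% and that of all genes at 53.0%, and the members' last step is SF3B5 at 1.10.

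The SF3A and SF3B complexes sit on the U2 snRNP, where SF3B1 holds the duplex of U2 snRNA and the branch point. SF3B5, one of the smallest subunits of SF3B and also a component of the SAGA transcription coactivator, was the member with the largest difference in either direction. It read 8.85 with siSE1 and 8.93 with siSE2, against 7.79 on the control array (log2). The siRNA arrays averaged 8.89 ± 0.055 (SD, n = 2) and both lay more than 1 log2 unit above the control. SF3B5 rose 2.14-fold (1.10 ± 0.14, SE; 95% interval 0.78 to 1.42; adjusted p = 0.0207 by limma). The call depends on the filter on dim genes: with no filter, which raises the number of genes tested to 18417, the adjusted p was 0.0927 (limma), and over the 8 alternatives with a test it ran from 0.0104 to 0.0927.

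None of the other 8 SF3 genes passed the test, and at an unadjusted p under 0.05 2 of them, SF3B6 and SF3B1, were lower. SF3B6, another subunit of SF3B, read 8.38 with siSE1 and 8.43 with siSE2, against 8.96 on the control array. Its difference of -0.56 ± 0.14 (SE) was the second lowest of all members and did not pass (adjusted p = 0.0929 by limma). SF3B1, the largest subunit, read 8.96 with siSE1 and 9.12 with siSE2, against 9.38 on the control array, both below the control (difference -0.34, 95% interval -0.68 to -0.01). SF3A3, a subunit of the SF3A complex, read 10.12 with siSE1 and 10.22 with siSE2, against 10.38 on the control array. SF3B3, which accompanies SF3B5 in SF3B and in SAGA, differed by -0.11 ± 0.14 (SE), with an interval of -0.43 to 0.21 that lies below that of SF3B5. SF3B2, SF3B4, SF3A1 and SF3A2 had differences from -0.15 to 0.16. The median of the 9 SF3 genes was -0.11, of which 1 rose and 8 did not pass.

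The promoter windows of SF3B5 and SF3B6 are shown because these genes of 1 complex had the largest differences upward and downward in the SF3 group. Each runs from 250 bases before to 50 bases after the gene's start (RefSeq, GRCh38.p14, 5′ to 3′ on the gene's strand). Capitals mark CGGAAG or its reverse complement CTTCCG, a form of the GGAA-centred core that ETS factors bind.
SF3B5, chr6:144095524-144095823, minus strand: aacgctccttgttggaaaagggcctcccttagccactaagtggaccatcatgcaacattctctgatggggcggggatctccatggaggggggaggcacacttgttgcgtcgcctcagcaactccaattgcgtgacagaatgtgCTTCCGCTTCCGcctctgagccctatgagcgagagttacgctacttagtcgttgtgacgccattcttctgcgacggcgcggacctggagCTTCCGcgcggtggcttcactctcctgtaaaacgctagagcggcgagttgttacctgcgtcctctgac
SF3B6, chr2:24076277-24076576, minus strand: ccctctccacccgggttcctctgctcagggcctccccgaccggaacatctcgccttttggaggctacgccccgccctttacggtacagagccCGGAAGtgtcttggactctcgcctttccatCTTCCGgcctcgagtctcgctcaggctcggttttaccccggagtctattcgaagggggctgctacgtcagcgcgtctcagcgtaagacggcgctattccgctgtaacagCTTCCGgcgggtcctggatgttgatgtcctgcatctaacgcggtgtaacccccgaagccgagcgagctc
Both windows hold 3 matches. In SF3B6 all 3 are part of the longer CCGGAAG, while in SF3B5 0 are. A match describes the letters and does not show that a factor binds there.

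The Sm-like proteins form a closed ring at the 3′ end of U6 snRNA in the nucleus (LSM2 to LSM8), and a related ring with LSM1 in place of LSM8 promotes decapping and decay of mRNA in the cytoplasm. Of these 8 genes 6 were below the control by the mean of the siRNAs, and 0 passed the test (limma; at an unadjusted p under 0.05, 3 were lower and 0 higher). Their median difference was -0.23, with -0.32 for siSE1 and -0.15 for siSE2. LSM2 was the lowest of all 47 members, at 7.51 with siSE1 and 7.80 with siSE2, against 8.35 on the control array. Both values lay below the control, by 1.79-fold with siSE1 and 1.46-fold with siSE2 (mean difference -0.69 ± 0.16, SE; limma, adjusted p = 0.0765). The 3 probe sets of LSM2 held identical values, so they amount to 1 measurement.

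LSM5 read 7.65 with siSE1 and 7.78 with siSE2, against 8.23 on the control array (-0.51 ± 0.15, SE; limma, adjusted p = 0.121). LSM4 read 8.94 with siSE1 and 9.08 with siSE2, against 9.42 on the control array (-0.41 ± 0.15, SE). Both genes code for subunits shared by the nuclear and the cytoplasmic ring, as LSM2 does, and were below the control with each siRNA. LSM8, which marks the nuclear ring, differed by -0.25 (95% interval -0.59 to 0.08). LSM1, which marks the cytoplasmic ring, differed by -0.13 (95% interval -0.45 to 0.20). LSM6 differed by -0.22 and LSM7 by 0.06. LSM3 was on the other side, at 10.11 with siSE1 and 10.06 with siSE2, against 9.89 on the control array, within its interval of -0.12 to 0.52.

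The promoter window of LSM2, the member with the lowest mean difference, held no match to CGGAAG in either orientation (RefSeq, GRCh38.p14, 5′ to 3′). It does hold GGAA beside other bases, which was not marked or counted. LSM5, not shown, has 2 windows with 2 matches to CGGAAG in each.
LSM2, chr6:31806917-31807216, minus strand: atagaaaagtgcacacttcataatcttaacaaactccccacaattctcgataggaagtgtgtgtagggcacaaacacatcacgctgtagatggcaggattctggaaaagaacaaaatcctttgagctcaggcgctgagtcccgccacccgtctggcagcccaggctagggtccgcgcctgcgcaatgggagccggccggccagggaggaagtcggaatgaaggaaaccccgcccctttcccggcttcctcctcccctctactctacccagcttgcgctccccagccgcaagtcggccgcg

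By the mean of the siRNAs, PRPF3 and PRPF6 were the highest members after SF3B5, followed by the Sm gene SNRPG and by PRPF4. PRPF3, a protein of the U4/U6 particle, read 8.84 with siSE1 and 8.57 with siSE2, against 8.11 on the control array. It was 1.51-fold above the control by the mean (0.59 ± 0.16, SE) and did not pass (adjusted p = 0.107 by limma). PRPF6, the U5 protein that bridges the parts of the tri-snRNP, read 8.21 with siSE1 and 8.03 with siSE2, against 7.68 on the control array (0.44 ± 0.15, SE; adjusted p = 0.173 by limma). PRPF4, the partner of PRPF3, read 8.74 with siSE1 and 8.60 with siSE2, against 8.44 on the control array (95% interval of the difference -0.10 to 0.56). All 3 were above the control with each siRNA, and higher with siSE1 than with siSE2.

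The other 8 PRPF genes differed by -0.24 to 0.09. PRPF31, which binds the U4 snRNA of the U4/U6 particle, read 7.57 with siSE1 and 7.54 with siSE2, against 7.79 on the control array (-0.24, 95% interval -0.56 to 0.08). PRPF8, the scaffold of the catalytic centre, differed by 0.07 ± 0.14 (SE), with values of 11.12 with siSE1 and 11.13 with siSE2, against 11.06 on the control array. PRPF19, the ubiquitin ligase of the complex that activates the spliceosome, differed by -0.14. PRPF18, a second-step factor, differed by -0.23. The U1-associated PRPF39 and PRPF40B differed by -0.15 and 0.09, and PRPF38A and PRPF38B by 0.04 and -0.03. Of the 11 PRPF genes 0 passed (limma; at an unadjusted p under 0.05, 2 were higher and 0 lower), and 6 were above the control. Their median was 0.04 as deposited and -0.0026 with equal array medians, so the group as a whole has no settled direction.

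The promoter window of PRPF6 is shown because it is the highest PRPF gene with a window in the table. It holds 4 matches in capitals, 2 of them within CCGGAAG (RefSeq, GRCh38.p14, 5′ to 3′).
PRPF6, chr20:63980882-63981181, plus strand: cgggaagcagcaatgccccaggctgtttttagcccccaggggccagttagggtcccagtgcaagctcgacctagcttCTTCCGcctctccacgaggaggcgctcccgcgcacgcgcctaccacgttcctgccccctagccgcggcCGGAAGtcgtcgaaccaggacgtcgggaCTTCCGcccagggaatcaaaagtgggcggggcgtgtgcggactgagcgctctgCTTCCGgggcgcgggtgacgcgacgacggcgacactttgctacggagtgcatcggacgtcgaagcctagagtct

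**Figure D3:**
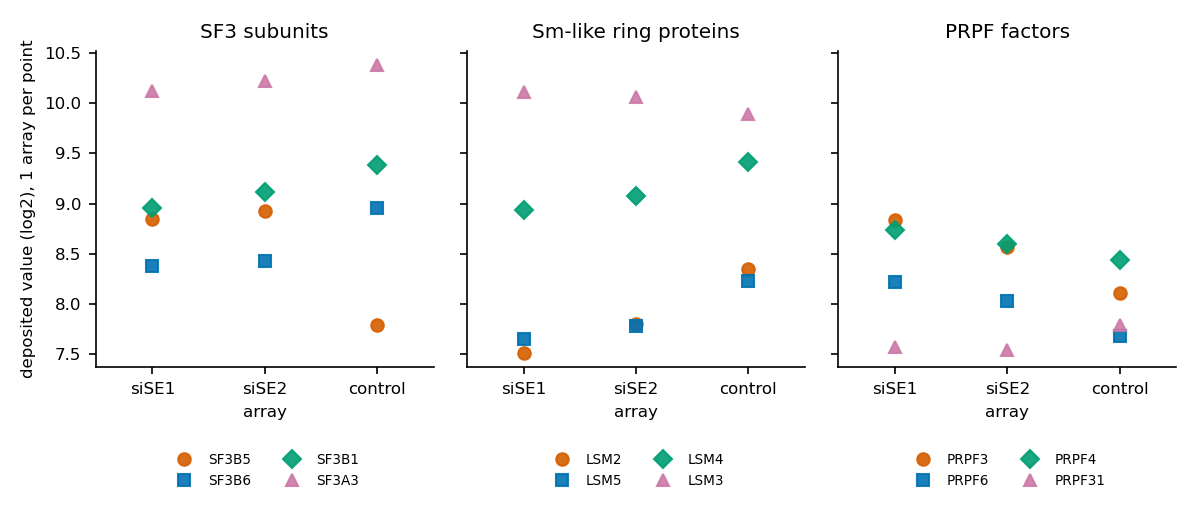
Deposited values (log2, vertical axis) of 4 genes each of the SF3 subunits, the Sm-like ring proteins and the PRPF factors on the siSE1, siSE2 and control arrays, 1 array per point. SF3B5 is more than 1 unit higher on both siRNA arrays, LSM2, LSM5 and LSM4 are lower on both, and PRPF3, PRPF6 and PRPF4 are higher on both.

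The Sm proteins form the ring that surrounds the U1, U2, U4 and U5 snRNAs. Of the 7 Sm genes 0 passed the test (limma; at an unadjusted p under 0.05, 1 was lower and 0 higher), and the median difference was -0.0023. SNRPB, which codes for the SmB proteins, read 9.71 with siSE1 and 9.60 with siSE2, against 10.12 on the control array. Both values were below the control (-0.47 ± 0.15, SE; limma, adjusted p = 0.142). SNRPD1 differed by -0.18, SNRPD3 by -0.29 and SNRPD2 by 0.14, each with an interval that included 0. SNRPF differed by -0.0023. SNRPE differed by 0.0024 as deposited and by -0.0097 to -0.037 with the 3 other normalizations, so it has no settled direction.

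SNRPG, another Sm gene, had probe sets that went in opposite directions. Probe set 8026339 read 8.47 with siSE1 and 7.40 with siSE2, against 6.80 on the control array, which is 3.20-fold higher with siSE1 and 1.52-fold higher with siSE2. Probe set 8052861 read 5.51 with siSE1 and 5.19 with siSE2, against 5.73 on the control array. Their mean, 6.99 with siSE1 and 6.30 with siSE2, against 6.26 on the control array, gave the largest gap between the siRNAs of any member, 0.70 on the log2 scale. The mean difference of 0.38 ± 0.24 (SE) did not pass (adjusted p = 0.442 by limma). Which of the probe sets follows the SNRPG transcript was not tested. The 2 probe sets of SNRPE also differed in sign, with mean differences of -0.08 and 0.09, while the 3 of LSM14B (-0.07, -0.25 and -0.39) and the 2 of LSM12 (-0.03 and -0.02) shared theirs. The SNRPE probe set at -0.08 read 4.15 to 4.30 and the LSM14B probe set at -0.39 read 3.91 to 4.39. Both lay below the filter level of 5.12 on each array.

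**Figure D4:**
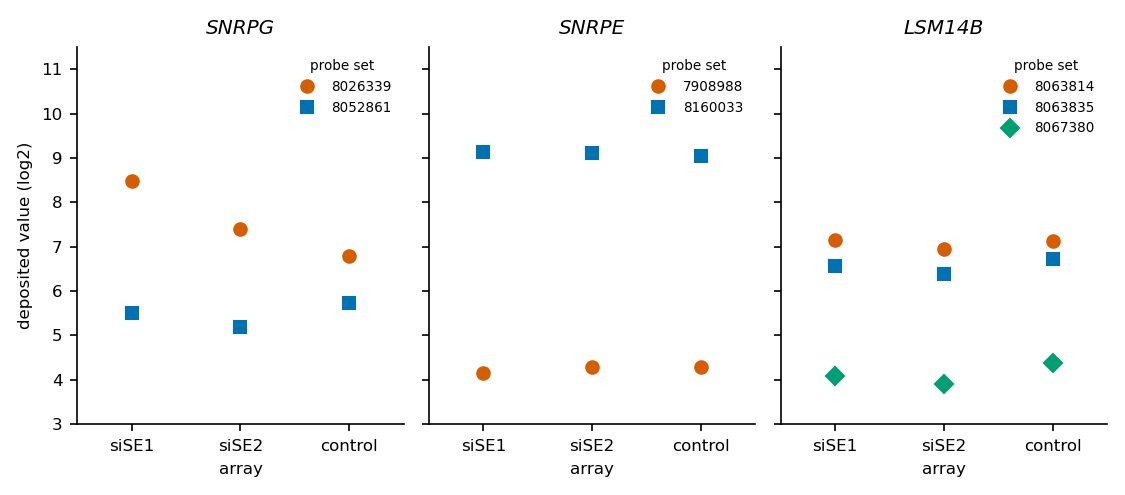
Deposited values (log2, vertical axis) of each probe set of SNRPG, SNRPE and LSM14B on the siSE1, siSE2 and control arrays. SNRPG probe set 8026339 stands at 8.47 and 7.40 on the siRNA arrays and at 6.80 on the control array, while probe set 8052861 is lower on both siRNA arrays than on the control array.

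The 4 genes of particle-specific U1 and U2 proteins were below the control with each siRNA, and 0 passed (limma; at an unadjusted p under 0.05, 1 was lower and 0 higher; median difference -0.18). SNRPA1, a specific protein of the U2 snRNP, read 5.59 with siSE1 and 5.04 with siSE2, against 5.80 on the control array. It was 1.70-fold below the control with siSE2 and 1.16-fold with siSE1, so its mean difference of -0.49 ± 0.21 (SE) rests mostly on siSE2. That siSE2 value is dim and lay below the filter level of 5.12. SNRPA, which binds a stem-loop of U1 snRNA, read 9.90 with siSE1 and 9.82 with siSE2, against 10.09 on the control array. SNRPC, which helps U1 contact the 5′ splice site, differed by -0.12. SNRPB2, the partner of SNRPA1 on U2 snRNA, differed by -0.11.

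The U2AF proteins bind the 3′ end of the intron ahead of U2, U2AF2 at the polypyrimidine tract and U2AF1 at the AG dinucleotide. U2AF1 read 9.78 with siSE1 and 9.74 with siSE2, against 9.87 on the control array (-0.10, 95% interval -0.42 to 0.21). U2AF2 differed by 0.03 as deposited and by -0.0084 with equal array medians, which leaves no settled direction. U2AF1L4, a relative of U2AF1, read 6.28 with siSE1 and 6.78 with siSE2, against 6.72 on the control array, which is -0.44 with siSE1 and 0.07 with siSE2. None of these 3 genes passed (limma; at an unadjusted p under 0.05, 0 in either direction).

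Among the other LSM genes 0 of 5 passed (limma; at an unadjusted p under 0.05, 1 was lower and 0 higher). LSM10 and LSM11 replace a pair of Sm proteins in the U7 snRNP, which processes the 3′ ends of replication-dependent histone mRNAs. LSM10 read 8.20 with siSE1 and 7.83 with siSE2, against 8.48 on the control array (-0.47 ± 0.17, SE; limma, adjusted p = 0.206). LSM11 read 5.23 with siSE1 and 5.29 with siSE2, against 5.11 on the control array, near the filter level. These U7 proteins thus lay on opposite sides of the control, with LSM11 inside its interval of -0.17 to 0.47. LSM14A, a repressor of translation found in P-bodies, differed by -0.27 and its relative LSM14B by -0.24. With only its highest probe set, LSM14B differed by -0.07. LSM12 differed by -0.03.

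By size alone, with no test, SF3B5 was the only member at least 1.5-fold from the control with both siRNAs. Over all genes tested 0.582% were that much higher with both and 1.53% that much lower. With siSE1 3 members were at least 1.5-fold higher (SF3B5, PRPF3 and SNRPG; 1.45% of all genes) and 1 lower (LSM2; 4.27%). With siSE2 1 was higher (SF3B5; 1.20%) and 2 were lower (SNRPA1 and LSM10; 2.82%). SNRPG, SNRPA1, U2AF1L4 and LSM10 were the members on which the siRNAs lay furthest apart, by 0.70, 0.55, -0.51 and 0.36 (log2, siSE1 minus siSE2), which has no test with 1 array each.

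Promoter windows were found for 40 of the 48 members. CGGAAG, searched on both strands, was present for 25 of these 40 genes (62.5%), against 36.2% of the 10244 tested genes with a window and 29.7% of 15843 protein-coding genes. Counted by window, 19.5% of all 35116 windows held it. CCGGAAG, which contains CGGAAG, was present for 18 members (45.0%), against 20.9% of tested genes and 16.5% of protein-coding genes, and in 10.3% of all windows. The median difference was -0.11 for the 25 tested members that hold CGGAAG and -0.10 for the 15 that do not. For CCGGAAG it was -0.11 for the 18 that hold it and -0.07 for the 22 that do not. The shares describe the letters of the windows, and neither they nor the medians were tested.

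Genes that work with the members were followed in 9 further lists, which hold 166 symbols, older names included, and 151 tested genes. None passed (limma). At an unadjusted p under 0.05, 13 were lower (8.61%, against 11.3% of all genes tested) and 4 higher (2.65%, against 6.46%). Their median difference was -0.05, and 99 of the 151 (65.6%, against 53.0% of all genes tested) were below the control by the mean of the siRNAs. Among snRNP proteins outside the symbol rule, CHERP, a protein associated with the U2 snRNP, read 9.52 with siSE1 and 9.47 with siSE2, against 8.90 on the control array (0.60 ± 0.14, SE; limma, adjusted p = 0.079). SNRNP25, of the minor U11/U12 particle, read 8.73 with siSE1 and 8.59 with siSE2, against 9.28 on the control array (-0.62 ± 0.15, SE; limma, adjusted p = 0.076). SART3, which helps to re-form U4/U6, differed by -0.49. Of that list's 28 tested genes 2 were higher and 2 lower at an unadjusted p under 0.05.

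Below the control by the mean of the siRNAs were 9 of 13 tested SR protein genes (69.2%), 7 of 9 exon junction complex genes (77.8%), 12 of 17 genes of snRNP assembly and snRNA export (70.6%) and 15 of 21 hnRNP genes (71.4%). The SR proteins, which promote exon recognition, had a median of -0.17 by the mean and with each siRNA, with 4 lower and 0 higher at an unadjusted p under 0.05. SRSF2 read 9.12 with each siRNA, against 9.61 on the control array, and SRSF7 differed by -0.52 and SRSF5 by -0.35. The exon junction complex genes, whose products mark spliced mRNA, had a median of -0.28 (-0.22 with siSE1 and -0.23 with siSE2), with EIF4A3 at -0.58, RBM8A at -0.41 and SAP18 at -0.29. The genes of snRNP assembly and snRNA export had a median of -0.24 by the mean of the siRNAs, but of -0.13 with siSE1 alone, -0.08 with siSE2 alone and -0.14 with the filter set at the 50th percentile. Among them, the gene of the SMN complex helicase DDX20 differed by -0.38, CLNS1A by -0.30 and GEMIN6 by -0.26. The hnRNP genes had a median of -0.15, which rests on siSE1 (-0.18 with siSE1 alone and -0.02 with siSE2 alone), with PCBP1 at -0.33, HNRNPA2B1 at -0.32 and HNRNPH3 at -0.26.

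The remaining lists had medians from -0.11 to 0.05. Of the 28 tested PRP19 complex and catalytic-step factors 20 (71.4%) were below it, with a median of -0.06 (-0.03 with siSE1 and -0.09 with siSE2) and with SLU7 at 0.39, CWC27 at -0.41 and BUD13 at -0.32. The 8 decapping partners of the cytoplasmic LSM ring had a median of 0.05 (0.03 with siSE1 and 0.12 with siSE2), and 2 of them (25.0%) were below the control, with the decapping enzyme gene DCP2 at 0.36, DCP1B at 0.25 and DDX6 at 0.11. Of the 9 tested histone 3′ end processing partners of LSM10 and LSM11, 7 (77.8%) were below the control, with a median of -0.11 (-0.17 with siSE1 and -0.07 with siSE2) and with SLBP, the histone stem-loop binding protein, at -0.52, CASP8AP2 at -0.31 and SYMPK at 0.25. Of the 19 tested genes of snRNA transcription and 3′ processing 12 (63.2%) were below it, with a median of -0.02 (-0.07 with siSE1 and -0.06 with siSE2) and with SNAPC1 at -0.28, SNAPC4 at 0.21 and INTS13 at -0.22.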

How the data were processed

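The authors deposited 1 table of log2 values with a row per probe set and a column per array, which Affymetrix Expression Console produced, per the submitters' processing notes. Its version, algorithm and background correction, and the build used, are not stated in any source used here. The log2 scale was inferred from the values, which run from 1.43 to 13.9. Genes were named from a platform annotation, updated by gene identifier through a RefSeq table of GRCh38.p14 (names only; 19429 of 19460 probe sets with 1 gene matched). Probe sets of a gene were averaged (18417 genes), and 5525 genes with a mean below the 30th percentile were left out. The siSE1 and siSE2 arrays were compared with the control by limma 3.58.1 (lmFit, eBayes, two-sided) in R 4.3.3, with p-values adjusted by Benjamini-Hochberg over the 12892 genes tested and a threshold of 0.05. SE and 95% intervals are moderated and intervals are unadjusted. The fit was run on simulated data in which the control varied as the siRNA arrays do, so that assumption itself was not tested.

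Members, lists and tests were chosen with earlier results of these data known. Values on each array are given for members past the test or past 1.5-fold with both siRNAs, up to 4 per role by the smaller of their changes, and the 4 on which the siRNAs lay furthest apart; SNRPE, SNRPF, LSM12, LSM7, PRPF8 and other members outside this rule were named after their values were seen. Of each further list up to 3 genes are named in the same order. Alternatives were 3 normalizations, other filters, the highest probe set per gene, other priors and thresholds, and leaving out either siRNA array.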

Additional observations from a re-analysis of the deposited data

How the results depend on the processing

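The number of members that rose was 1, and 0 with no filter on dim genes, where 18417 genes were tested and SF3B5 kept its difference of 1.10 (limma, adjusted p = 0.0927); in the other 7 alternatives with a test SF3B5 passed, with differences from 1.06 to 1.15. With an adjusted p threshold of 0.10, 2 of the 47 members tested were called lower (LSM2 and SF3B6). In the further lists 1 of the 151 tested genes was called higher (CHERP) and 1 lower (SNRNP25). Over all 12892 genes tested, 143 rose and 364 fell at that threshold. By size, the count of members at least 1.5-fold higher with both siRNAs was 1, and 2 with the highest probe set per gene, which adds SNRPG. The count lower was 0, and 1 (LSM2) with equal array medians. With a size threshold of 0.32 on the log2 scale in place of 1.5-fold, 3 were higher and 5 lower. The share of all genes tested past that lower threshold was not counted, so these 2 counts have no baseline. Leaving out either siRNA array, which leaves 1 array against 1 and no test, gave 1 to 3 higher and 1 to 2 lower. SNRPE changed sign with quantile normalization (-0.0097), equal array medians (-0.037) and cyclic loess (-0.015), and U2AF2 with equal array medians (-0.0084). The members' median stayed between -0.16 and -0.08 in all alternatives. The median of all genes tested moved as well. It was 0.01 with no filter, -0.05 with the filter set at the 50th percentile and -0.06 with equal array medians, where the members' median was -0.16. Over all genes, 32 rose and 92 fell as deposited, against 63 and 126 with quantile normalization, 21 and 68 with equal array medians, 1 and 0 with no filter, 15 and 20 with the filter set at the 50th percentile, and 52 and 129 with an intensity trend in the prior. Causes were not tested. No paired analysis was possible because the groups share fewer than 2 replicate numbers. With 3 arrays, differences below the half-width of a gene's unadjusted interval, 0.32 to 0.54 on the log2 scale for the members, are not resolved. The adjusted test left larger ones uncalled, such as LSM2 at -0.69 (limma, adjusted p = 0.0765).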

Other observations

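SNRPN, which codes for a Sm protein closely related to SmB, was not among the members because its 8 probe sets on the array name it together with other genes. The probe set that names it with SNURF read 8.91 with siSE1 and 8.65 with siSE2, against 8.96 on the control array (log2). Over the 8 probe sets the mean differences from the control ran from -0.18 to 0.06, and 0 were 1.5-fold away from it with both siRNAs. Some of these probe sets held identical values, so the 8 amount to 5 measurements, and 4 of the 8 lay below the filter on dim genes, with values from 2.11 to 2.25. The others name it beside small nucleolar RNA genes, so none of these values entered a comparison.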
